A study of Talpa occidentalis with 6 samples.

Results

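The regions described here were stretches of chromatin open in both portions of the ovotestis of the Iberian mole (Talpa occidentalis) and not open in the testis. There were 2286 of them, or 11.1% of the 20562 runs of sequence open in both portions. Females of this species carry ovotestes, in which an ovarian portion lies beside a testicular portion, and males carry testes. Wild-type gonads at postnatal day 7 were dissociated and profiled by ATAC-seq, an assay that reads where a transposase can cut into DNA and so where chromatin is accessible. The ovarian portion, the testicular portion and the testis had 2 samples each. The authors deposited 1 segmentation per tissue, and by the labels it belongs to both samples, which leaves 1 pooled value for each tissue. No value has a spread between samples, no difference between tissues was tested, and the depth of the samples is unknown.

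Each segmentation gives every 200 bp bin of the assembly talOcc4 a state number from 1 to 5. The states form an ordered series. Neighbouring numbers met at 99.7% of the state boundaries in each portion and at 99.8% in the testis. State 1 ends this series on one side and is coloured red, and it was taken as open from this colour and order alone. State 5 ends it on the other side and is coloured white. A region is a run of adjacent bins in state 1 in both portions over which the testis has no bin in state 1, on scaffolds 1 to 17 without scaffold 15. The regions were thus chosen by the states of the 3 tissues inside them, and those states are given as a description. The library numbers in the titles put both portions in 1 consecutive series and the testis in another, so a difference between the portions and the testis cannot be told apart from one between these series. The comparison takes a state number to mean the same in each tissue.

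Open chromatin marks promoters and enhancers, the sequences through which transcription factors switch genes on. In most mammals the female gonad forms an ovary and the male gonad a testis, each with its own supporting cells, the granulosa and the Sertoli cells. The mole ovotestis joins tissue of both kinds in a female, and its testicular portion makes androgens but no sperm. Chromatin open in both portions and not in the testis is thus shared by 2 tissues of 1 sex that differ in structure. A whole portion holds many cell types, so a state further from state 1 in a tissue can reflect fewer cells with open chromatin or less accessible DNA per cell, which cannot be told apart. No gene positions on talOcc4 were used here, so the regions are given by their position and states and not by genes, and the tissue labels were not checked against marker genes.

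The 2286 regions were the smallest in number of the 3 sets that the same rule gives with the tissues exchanged. The rule fixes these counts, which are given as a description. Runs open in the testicular portion and the testis and not in the ovarian portion numbered 5086, or 21.5% of the 23638 runs those tissues shared. Runs that the ovarian portion and the testis shared without the testicular portion numbered 2505, or 11.9% of 21044. By count, the 2 portions of the female gonad thus had fewer runs to themselves than either portion had with the testis. At 400 bp or more they had 856 to themselves, against 718 for the ovarian and 2305 for the testicular portion with the testis. Single bins numbered 1430 and, for the ovarian portion with the testis, 1787, so the order of these 2 sets depended on length. With the tissues exchanged, the counts were not recomputed under other settings. The regions added up to 702.8 kb, against 1645 kb for the testicular portion with the testis and 671.2 kb for the ovarian portion with the testis.

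Nearly all of the regions were 1 step from open in the testis. The lowest testis state, meaning the lowest state number that any of its bins had over the region, was 2 in 2241 regions, or 98.0% (Wilson 95% interval 97.4% to 98.5%, which covers counting error only). It was 3 in 43 regions, or 1.88% (1.4% to 2.52%), and 4 in 2 regions. No region had state 5 as its lowest testis state. Within the regions, 3442 testis bins were in state 2, 69 in state 3 and 3 in state 4. In 2273 regions every testis bin had the same state, which includes 1430 regions of a single bin, where it could not be otherwise. The missing tissue was further down the series in the set that the ovarian portion lacks. There, the lowest state was 2 in 85.0% of runs (84.0% to 86.0%) and 3 in 14.5% (13.6% to 15.5%). In the set that the testicular portion lacks, the lowest state was 2 in 96.8% (96.0% to 97.4%).

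The rule turns on single bins at its edge. Just inside it, 58 regions had a testis bin in state 1 directly beside them. Just outside it, 5019 runs open in both portions held exactly 1 testis bin in state 1, and 901 of these runs were longer than 1 bin.

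The regions were short. Their median length was 200 bp, a single bin, and their mean was 307.4 bp, against a median of 600 bp and a mean of 641.8 bp for the 18276 runs open in both portions and the testis. The rule takes out every run with a testis bin in state 1, so longer runs are less likely to stay, and the sets with the tissues exchanged also had a median of 200 bp. Merging overlapping segments of the portions gave a median of 400 bp. Single bins made up 1430 of the regions. A share of 37.5% reached 400 bp (35.5% to 39.5%). That share was 45.3% (44.0% to 46.7%) for the testicular portion with the testis and 28.7% (26.9% to 30.5%) for the ovarian portion with the testis. With overlapping segments merged, 72.2% of the regions reached 400 bp, and with states 1 and 2 counted as open 63.1% did. At 800 bp or more there were 82 regions, or 3.59% (2.9% to 4.43%), against 3.26% (2.81% to 3.79%) for the testicular portion with the testis and 0.838% (0.549% to 1.28%) for the ovarian portion with the testis. Among these long runs the regions and the set of the testicular portion with the testis had overlapping intervals.

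**Figure D1:**
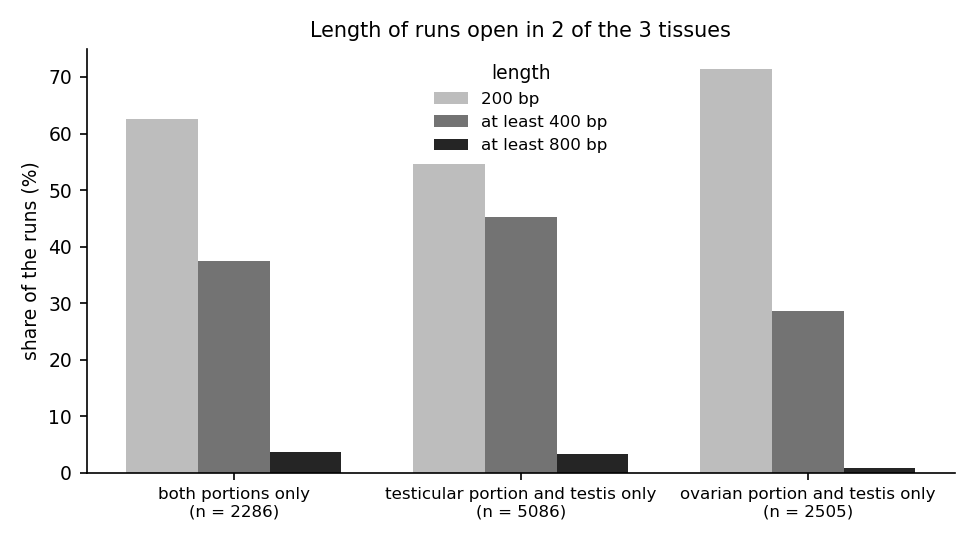
Share of runs by length, in percent of the runs of each set, for runs open in both portions and not in the testis (n = 2286), in the testicular portion and the testis and not in the ovarian portion (n = 5086), and in the testis and the ovarian but not the testicular portion (n = 2505). Bars stand for runs of 200 bp, of at least 400 bp and of at least 800 bp, and the share of at least 400 bp is 37.5%, 45.3% and 28.7%.

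The longest region spanned 2200 bp on scaffold 13 at 57829401 to 57831600. It was in state 2 over its whole length in the testis, whose nearest state 1 bin lay 14800 bp away, and it filled its state 1 segment in each portion. The next spanned 1800 bp on scaffold 8 at 44070401 to 44072200. The other 8 of the 10 longest were 1200 bp each. Of these, 4 lay at 31078801 to 31080000 of scaffold 2, 80219801 to 80221000 of scaffold 3, 63001 to 64200 of scaffold 6 and 44090801 to 44092000 of scaffold 8. The other 4 lay at 115785201 to 115786400 of scaffold 9, 6854801 to 6856000 of scaffold 12, 77832201 to 77833400 of scaffold 16 and 51155001 to 51156200 of scaffold 17. All 10 were in state 2 throughout in the testis.

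The regions and the portions' own segments did not always share their ends. In 923 regions, or 40.4%, the state 1 segments of both portions ended with the region. In 859 regions, or 37.6%, the segment of the ovarian portion alone reached further, and in 436, or 19.1%, that of the testicular portion alone did. The bin next to a region was in state 1 in 25% of cases in the ovarian and 13.4% in the testicular portion. Beside runs also open in the testis the shares were 22.2% in the ovarian and 12.2% in the testicular portion.

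Some regions lay close to open chromatin of the testis and others far from it. The nearest testis bin in state 1 was under 1 kb away for 410 regions, or 17.9% (16.4% to 19.6%), and under 10 kb away for 1252, or 54.8%. The median distance was 7.9 kb, with quartiles of 1.8 and 22.9 kb. For 97 regions, or 4.24% (3.49% to 5.15%), it was at least 100 kb. With the tissues exchanged, the missing tissue had a state 1 bin under 1 kb away for 7.71% of the runs that the ovarian portion lacks and 12.3% of those that the testicular portion lacks.

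At 1, 2 and 5 kb from the edge, states 1 and 2 held more of the bins around the regions than around runs also open in the testis, in each of the 3 tissues. Beyond the bin next to a run, which ends it, these bins were not used by the rule, yet they come from the same libraries and segmentations. At 1 kb from the edge, states 1 and 2 held 48.5% of bins in the ovarian and 42.4% in the testicular portion, against 34.5% in the testis. Around runs also open in the testis they held 37.3% in the ovarian and 30.1% in the testicular portion, against 27.1% in the testis. Nearer the edge the order differed: at 400 bp these states held 60.2% of testis bins around the regions and 72.2% around the shared runs. The rule sorted the 2 sets by testis state 1 inside the run, and the state mostly changes by 1 step. The testis bins nearest the edge are thus not independent of that sorting, and their values are given as a description. State 1 of the testis was also less frequent close to the regions. It held 1.27% of testis bins at 200 bp from the regions and 17.6% at that distance from the shared runs. At 400 bp it held 2.69% around the regions and 4.97% around the shared runs, and at 1 kb 4.9% around the regions and 4.21% around the shared runs. Over 5 kb on either side its mean share in the testis was 3.18% around the regions and 3.65% around the shared runs. At 1 kb, state 1 held 8.18% of bins in the ovarian and 9.32% in the testicular portion around the regions, and 4.96% in the ovarian and 4.98% in the testicular portion around the shared runs.

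**Figure D2:**
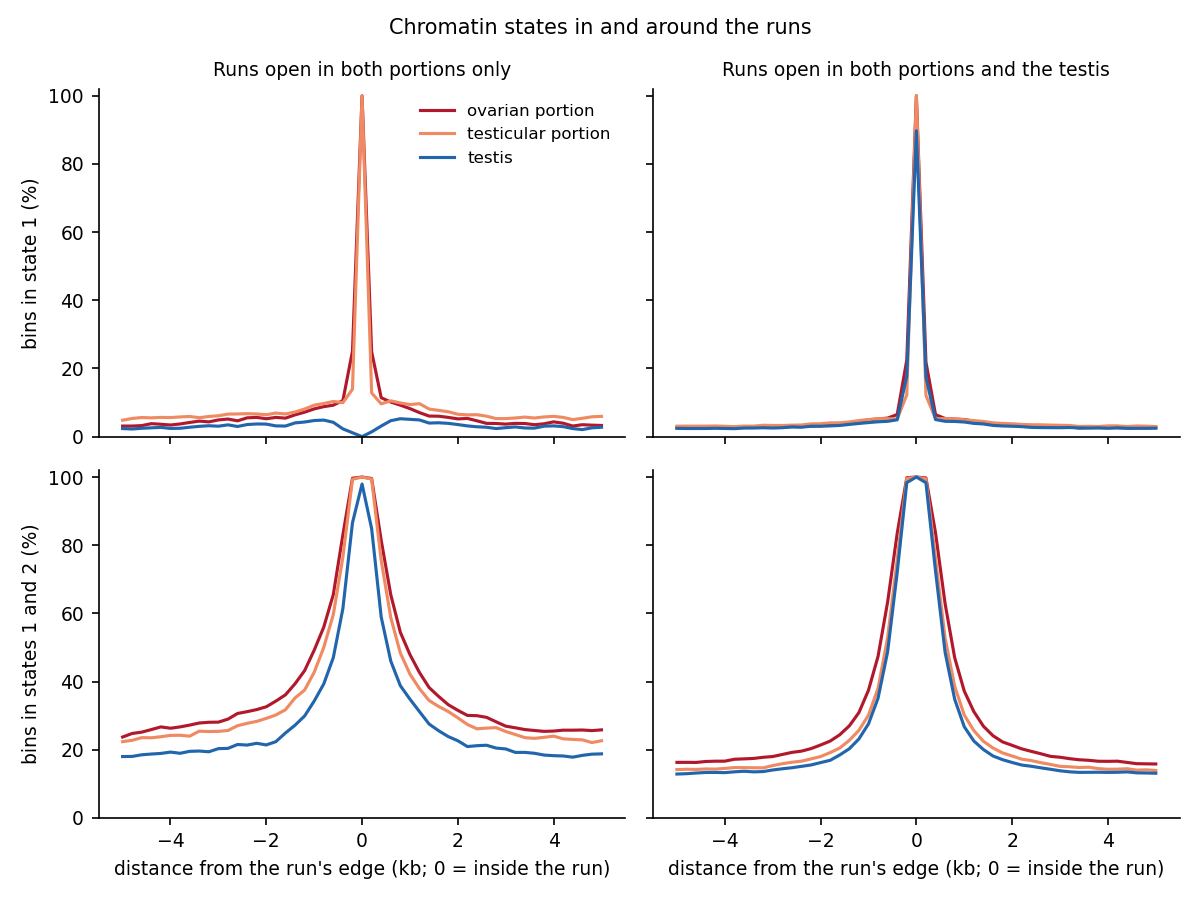
Share of bins in state 1 (top) and in states 1 and 2 (bottom), in percent, by distance from the edge of a run in kb, for the ovarian portion, the testicular portion and the testis. The left panels show the 2286 regions and the right panels the 18276 runs also open in the testis. The state 1 trough of the testis at 0 follows from the rule, and the testis bins nearest the edge are not independent of it. At 1 kb states 1 and 2 hold, on the left, 48.5% of bins in the ovarian and 42.4% in the testicular portion, against 34.5% in the testis.

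Within 50 kb on either side, states 1 to 3 held a median of 70.6% of bins in the ovarian and 68.4% in the testicular portion, against 60.6% in the testis. For runs also open in the testis the medians were 58.6% in the ovarian and 53.8% in the testicular portion, against 50.2% in the testis. Over the 16 scaffolds as a whole, these states held 37.8% in the ovarian and 39.1% in the testicular portion, against 39.7% in the testis. For states 1 and 2 the medians within 50 kb of the regions were 14% in the ovarian and 13% in the testicular portion, against 11.6% in the testis. Around the shared runs they were 9.6% in the ovarian and 8.4% in the testicular portion, against 9.2% in the testis. Both portions exceeded the testis in the share of states 1 and 2 around 52.4% of the regions (50.4% to 54.5%) and around 35.5% of the shared runs (34.8% to 36.2%). For states 1 to 3 the order depended on the width. Both portions exceeded the testis around 56.7% of the regions (54.7% to 58.8%) and 52.9% of the shared runs (52.2% to 53.7%) within 50 kb, but around 40.9% of the regions (38.9% to 42.9%) and 46.5% of the shared runs (45.8% to 47.3%) within 5 kb. The median difference in states 1 to 3 within 50 kb, ovarian portion minus testis, was 4.4 percentage points around the regions and 6.8 around the shared runs. That of the testicular portion minus the testis was 3.6 around the regions and 3 around the shared runs.

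The regions fell into different shapes. A region was called isolated where both portions were in state 3 to 5 at 1 kb on both sides, and embedded where both were in state 1 or 2 at those places. Isolated regions numbered 732, or 32.0% (30.1% to 34.0%), and embedded ones 525, or 22.97% (21.3% to 24.7%), and the remaining 1029 were mixed. Among runs also open in the testis, 39.4% were isolated (38.7% to 40.1%) and 10.7% embedded (10.2% to 11.1%). The difference held at equal length: among runs of a single bin, 20% of the regions were embedded (18.01% to 22.1%) and 8.09% of the shared runs were (7.29% to 8.96%).

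Isolated and embedded regions sat in different places. The testis had its nearest state 1 bin at a median of 18.4 kb from isolated regions and 2 kb from embedded ones. Within 50 kb of isolated regions the median share of states 1 and 2 was 6.4% in the ovarian and 6.2% in the testicular portion, against 6.4% in the testis. Around embedded regions it was 39.2% in the ovarian and 35% in the testicular portion, against 24.6% in the testis. Since the states of the portions sorted the regions into these shapes, the order of the portions and the testis within a shape is given as a description. Sorted by the testis instead, 49.2% of the regions were isolated (47.1% to 51.2%) and 18.2% embedded (16.7% to 19.9%), against 55.96% isolated (55.2% to 56.7%) and 10.3% embedded (9.83% to 10.7%) among the shared runs. Scaffold 2 held 7.79% of the isolated and 25.5% of the embedded regions.

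The 45 regions with state 3 or 4 as the lowest testis state were mostly isolated. In the portions, 34 of the 45 were isolated, or 75.6% (61.3% to 85.8%), and 0 were embedded. Among regions with state 2 as the lowest, 31.2% were isolated (29.3% to 33.1%). At 1 kb from these 45 regions, states 1 and 2 held 13.3% of bins in the ovarian and 6.67% in the testicular portion, against 3.33% in the testis. The 2 regions with state 4 as the lowest were single bins, at 82700801 to 82701000 of scaffold 14 and 13752401 to 13752600 of scaffold 17. The nearest testis bin in state 1 was 19200 bp from the first and 259400 bp from the second. The longest regions with state 3 as the lowest spanned 600 bp, at 15931801 to 15932400 of scaffold 2 and 23375401 to 23376000 of scaffold 14.

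Of these 45 regions, 8 lay on scaffold 2, 6 on scaffold 13 and 6 on scaffold 14. On scaffold 14, 4 of the 6 lay between 23323401 and 24201200, a stretch chosen after its values were seen. The 1 Mb window from 23000001 to 24000000 held 8 regions among 14 runs open in both portions. Those at 23010801 to 23011200 and 23011401 to 23011800 lay inside 1 segment of 1000 bp in the ovarian portion and are not separate there. States 1 and 2 covered 13.4% of the window from 23000001 in the ovarian and 16.8% in the testicular portion, against 4.54% in the testis. States 1 to 3 covered 65.6% in the ovarian and 66.2% in the testicular portion, against 40.3% in the testis. In the window before it, from 22000001, 1 of 15 runs was a region, and states 1 and 2 covered 7.4% in the ovarian and 8.52% in the testicular portion, against 8.28% in the testis. In the window after it, from 24000001, 5 of 15 were, with 18.7% in the ovarian and 25.1% in the testicular portion, against 13.9% in the testis.

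Each of the 16 scaffolds held regions, at 0.639 per Mb on scaffold 4 to 2.84 per Mb on scaffold 17. The runs open in both portions numbered 7.13 per Mb on scaffold 4 and 22.3 per Mb on scaffold 17. As a share of the runs open in both portions, the regions were most frequent on scaffold 8, with 173 of 1240 or 13.95% (12.1% to 15.99%). Scaffold 14 followed with 13.92% (11.9% to 16.2%) and scaffold 2 with 13.7% (12.3% to 15.2%). Their intervals overlap, so the order of these 3 is not resolved. The lowest share was 8.43% on scaffold 11 (7.02% to 10.1%).

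**Figure D3:**
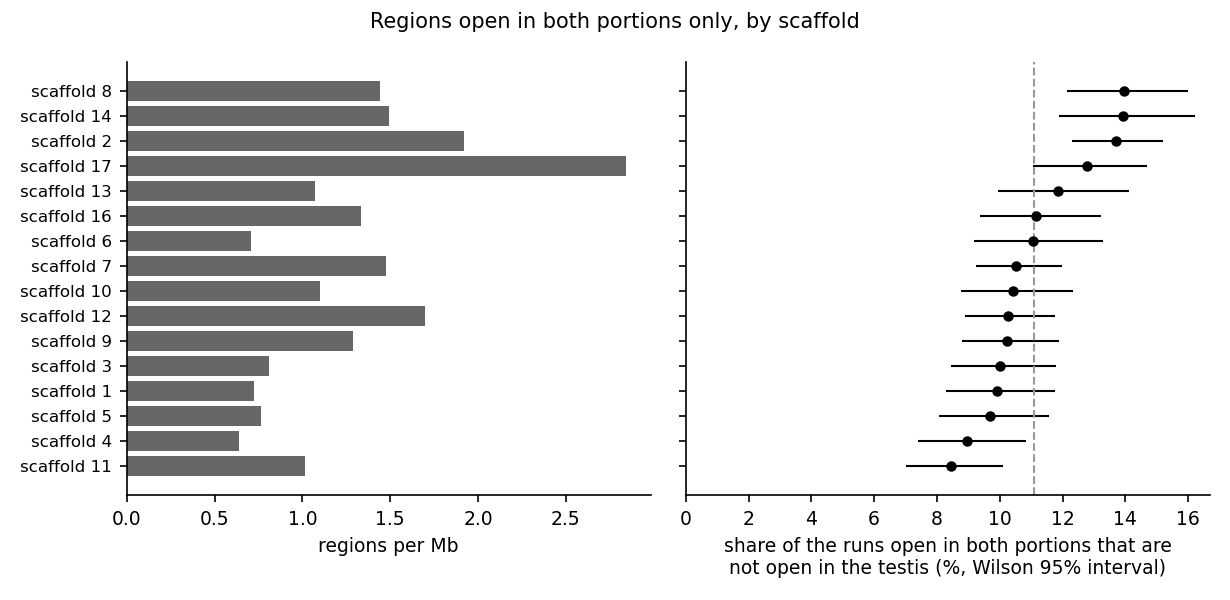
Regions per Mb of each of the 16 scaffolds (left, bars) and their share of the runs open in both portions in percent (right, points with Wilson 95% intervals for counting error only), with the overall 11.1% as a dashed line. Scaffold 17 has the most regions per Mb, at 2.84, and scaffolds 8, 14 and 2 the highest shares, at 13.95%, 13.92% and 13.7%.

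The regions gathered towards the ends of scaffolds. Of the regions, 610 or 26.7% lay within 5 Mb of a scaffold end (24.9% to 28.5%), against 12.9% of the runs also open in the testis (12.4% to 13.4%). That stretch makes up 8.35% of the sequence. The share of regions was higher than that of shared runs on each of the 16 scaffolds, from 6.78% against 4.95% on scaffold 2 to 39.8% against 14.98% on scaffold 1. In the sets with the tissues exchanged, 14.3% of the runs that the ovarian portion lacks lay there (13.4% to 15.3%) and 10.1% of those that the testicular portion lacks (9.02% to 11.4%). Of the embedded regions 42.3% lay within 5 Mb of an end, and of the isolated regions 10.4% did. Whether a scaffold end is the end of a chromosome was not checked.

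The share changed with distance from the end. In the last 1 Mb, 243 of 834 runs open in both portions were regions, or 29.1% (26.1% to 32.3%). Between 4 and 5 Mb from the end the share was 16.3% (13.4% to 19.8%), and beyond 10 Mb it was 9.13%, or 1425 of 15604. The last 1 Mb had a higher share than the part beyond 10 Mb on 15 of the 16 scaffolds, the exception being scaffold 11, where 0 of 9 runs in the last 1 Mb were regions. With each scaffold left out in turn, the share in the last 1 Mb stayed between 26.2% and 30.1%, the lower value being that without scaffold 8. Beyond 30 Mb the share of regions was 9.02% (8.45% to 9.63%). Of the runs that the ovarian portion and the testis shared, those that the testicular portion lacks made up 5.89% in the last 1 Mb (4.32% to 7.98%) and 12.5% beyond 30 Mb (11.9% to 13.2%). The runs that the ovarian portion lacks had another course, with 17.7% in the last 1 Mb (15.1% to 20.6%), 31.1% between 1 and 2 Mb (27.6% to 34.7%) and 19.7% beyond 30 Mb (18.9% to 20.5%).

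The states of the tissues moved with this position. Within 1 Mb of an end, states 1 and 2 covered 22.6% of the ovarian portion, 19.4% of the testicular portion and 11.8% of the testis. Between 10 and 15 Mb from the end they covered 5.85% in the ovarian and 5.2% in the testicular portion, against 5.93% in the testis. Within 5 Mb of an end as a whole they covered 12.9% in the ovarian and 12.3% in the testicular portion, against 9.57% in the testis, and further in 5.12% in the ovarian and 4.63% in the testicular portion, against 5.27% in the testis. The part of this difference in the count of regions near ends was not tested.

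**Figure D4:**
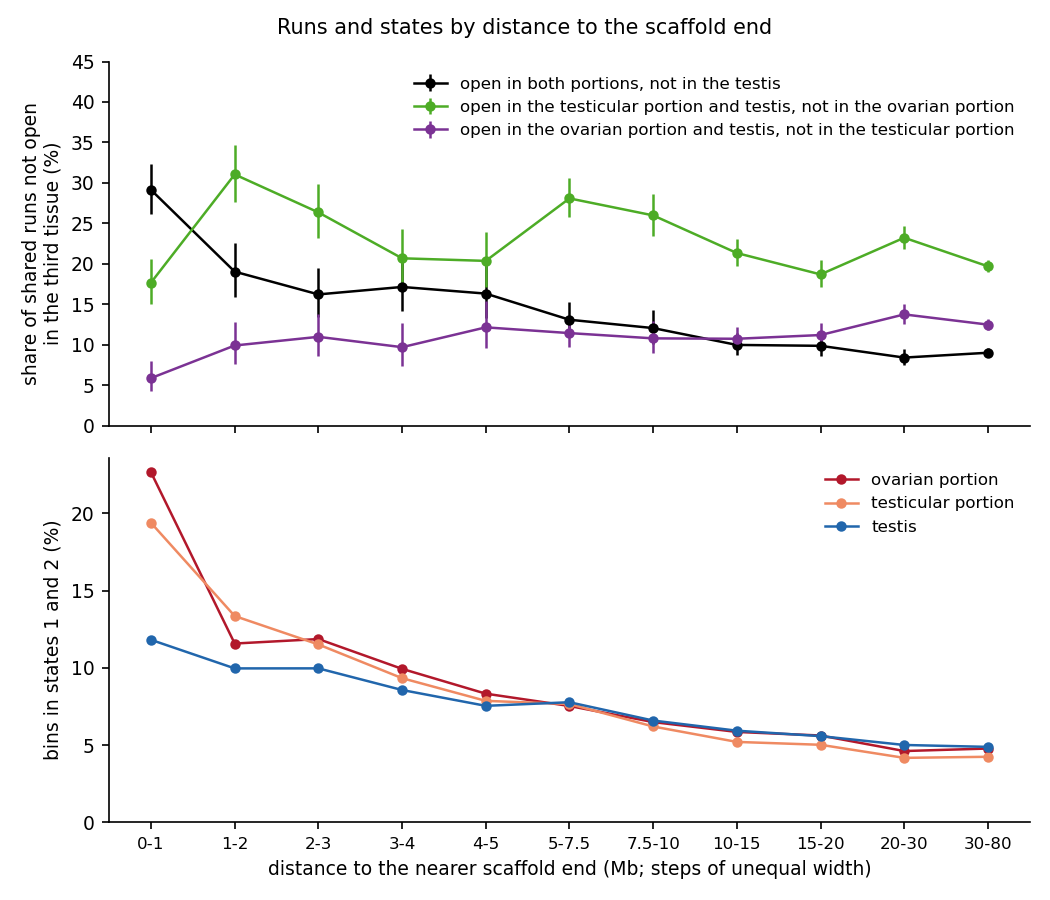
Top, share of the runs open in 2 tissues that are not open in the third, in percent with Wilson 95% intervals, by distance to the nearer scaffold end in Mb, for the 3 choices of the third tissue. Bottom, share of bins in states 1 and 2 in each tissue over the same steps. Regions open in both portions and not in the testis make up 29.1% of the runs open in both portions in the last 1 Mb and 9.13% beyond 10 Mb.

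Part of the regions lay in groups. With gaps of at most 50 kb between neighbours, 83 groups of 3 or more regions held 414 regions, or 18.1%. Each of the 16 scaffolds had a group, and scaffold 2 had 20 of them with 144 regions. A group spanned 53.2 kb at the median. In the sets with the tissues exchanged, groups held 24.2% of the runs that the ovarian portion lacks and 7.58% of those that the testicular portion lacks. Those sets differ in number, which bears on how often neighbours fall within 50 kb. Of the 83 groups, 38 lay within 5 Mb of a scaffold end.

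The largest group had 28 regions over 221.6 kb on scaffold 8, from 119544201 to 119765800, ending 81.4 kb before the end of the scaffold. Of the 32 runs open in both portions there, 28 were regions. State 1 covered 6.23% of this stretch in the ovarian and 32.8% in the testicular portion, against 0.541% in the testis, in 30 segments of the ovarian portion, 92 of the testicular portion and 4 of the testis. States 1 and 2 covered 77.5% in the ovarian and 79.5% in the testicular portion, against 68.6% in the testis. The testis thus had most of the stretch in state 2, with 4 segments in state 1. The longest of the 28 regions spanned 600 bp, and all had state 2 as the lowest testis state. Together they made up 9800 bp of the 221.6 kb and count in the shares of state 1. The rule puts them in state 1 in both portions and not in the testis. The difference in state 1 between the portions and the testis is thus in part fixed by the rule. It was not computed without the regions.

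The next groups by number of regions lay on scaffold 2. One had 19 regions from 40566201 to 40805000, where state 1 covered 10.6% of the ovarian portion, 27.3% of the testicular portion and 7.62% of the testis. The other had 13 regions from 40274201 to 40471800, with 12.6% in the ovarian and 26.1% in the testicular portion, against 9.41% in the testis. Each had more state 1 in the testicular than in the ovarian portion, as the group at the end of scaffold 8 did. The shares again include the regions, 6000 bp of 238.8 kb in the group of 19 and 4200 bp of 197.6 kb in the group of 13. Any excess of a portion over the testis is thus in part fixed by the rule, while the regions count alike in both portions.

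**Figure D5:**
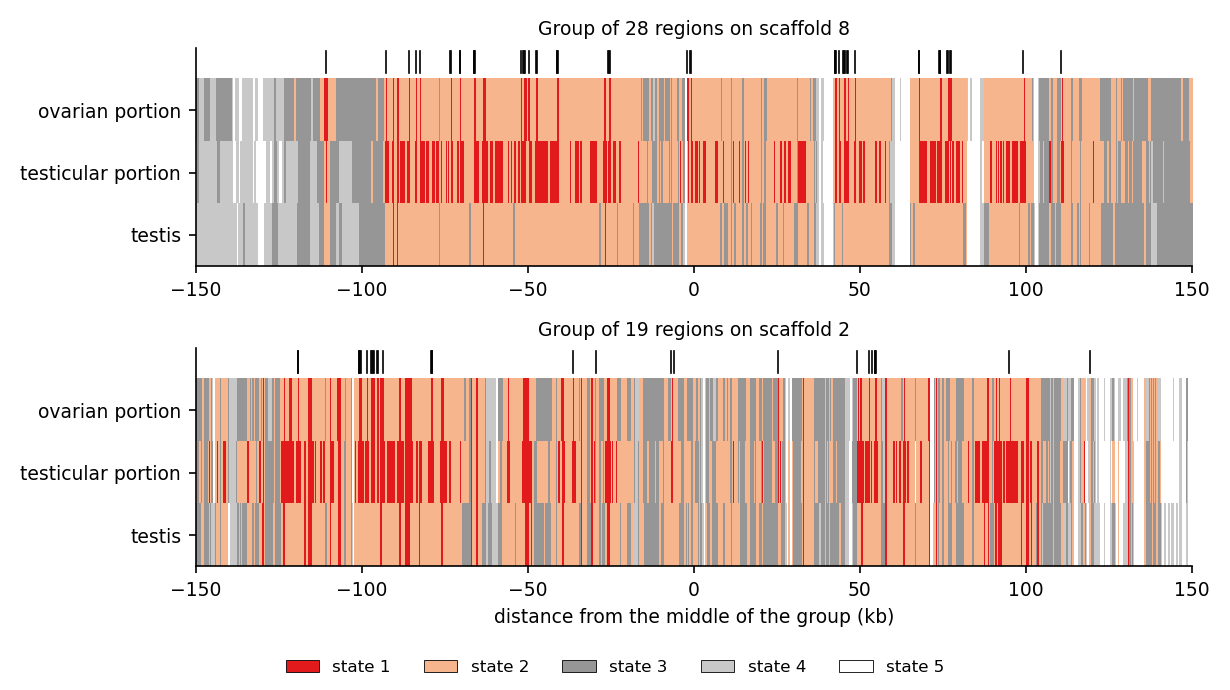
State of each 200 bp bin in the ovarian portion, the testicular portion and the testis around the middle of the 2 groups with the most regions, by distance in kb. Ticks above the rows mark the regions. In the group of 28 regions on scaffold 8, state 1 covers 6.23% of the grouped stretch in the ovarian and 32.8% in the testicular portion, against 0.541% in the testis, and in the group of 19 on scaffold 2 it covers 10.6% in the ovarian and 27.3% in the testicular portion, against 7.62% in the testis. These shares include the regions, which the rule puts in state 1 in both portions and not in the testis.

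The fourth group had 11 regions over 221 kb on scaffold 7, from 135837401 to 136058400, 502.6 kb before the end of the scaffold. There the portions were alike in state 1, with 7.42% in the ovarian and 6.15% in the testicular portion, against 2.35% in the testis. The fifth had 10 regions over 55.8 kb on scaffold 8, from 44069001 to 44124800, each of at least 400 bp. State 1 covered 35.8% of it in the ovarian and 54.8% in the testicular portion, against 17.2% in the testis. Of its regions, 7 lay inside 1 segment of the testicular portion in which state 1 ran without a break for 27000 bp. The ovarian portion divided the same stretch, so those 7 regions share 1 segment in the testicular portion and are not separate there. The shares of state 1 include the regions, 4600 bp in the fourth group and 7400 bp in the fifth. Their difference from the testis is thus in part fixed by the rule.

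Scaffold 2 departed from the others in where its regions lay. The 12 Mb from 30000001 to 42000000, a stretch chosen after its values were seen, held 188 of its 295 regions, or 63.7%. There were 15.7 regions per Mb in this stretch and 0.757 per Mb on the rest of the scaffold. Runs open in both portions were also denser there, with 868 in the 12 Mb and 1286 on the rest of the 153.4 Mb scaffold. Of these runs, 21.7% were regions in the stretch and 8.32% outside it. State 1 covered 5.59% of the stretch in the ovarian and 11.0% in the testicular portion, against 5.11% in the testis. On the rest of the scaffold it covered 0.825% in the ovarian and 0.713% in the testicular portion, against 0.824% in the testis. These shares include the regions, which the rule puts in state 1 in both portions and not in the testis. They were not computed without the regions. The 1 Mb window with the most regions of the 16 scaffolds lay in the 12 Mb stretch, from 40000001 to 41000000, with 36 regions among 140 runs open in both portions.

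Over the 16 scaffolds, 934 of 1923 windows of 1 Mb held a region and 989, or 51.4%, held none. There were 25 windows with at least 10 regions. They held 16.6% of the regions and 6.05% of the runs also open in the testis. Picking windows by their regions raises the first share, so the 2 shares are given as a description. Among windows with at least 10 runs open in both portions, the highest share of regions was 71.1%, or 32 of 45. It lay in the last window of scaffold 8 from 119000001. Not all windows with a high share of regions had more of states 1 and 2 in the portions. On scaffold 9 from 3000001, a window chosen after its values were seen, 8 of 18 runs were regions. There, states 1 and 2 covered 9.16% in the ovarian and 8.76% in the testicular portion, against 11.4% in the testis.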

How the data were processed

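The authors deposited 1 segmentation per mole tissue, a list of stretches with a state number, on 4454 scaffolds of talOcc4. The sources used here do not say how the mole states were assigned. STAR 2.6.1d and the mouse build mm9 appear in the submitters' processing notes, tied to no step. Gene models on another assembly and mouse segmentations were not used.

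States were read per 200 bp bin with Python 3.11.15 and numpy 2.4.6. Runs in state 1 in 2 tissues were found on 16 scaffolds (1.92 Gb) and the lowest state of the third was read over each. Positions are 1-based. Shares carry Wilson 95% intervals (scipy 1.17.1), which treat runs as independent and cover counting error only. No test between tissues was possible. Named regions are the 10 longest, those with a lowest testis state of 4 or 5, the 5 largest groups and the window with the most regions. Regions and lists were chosen with earlier results of these data known. The shapes, scaffold ends and outside scaffolds were examined after seeing the data. Region finding was tested on simulated data.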

Additional observations from a re-analysis of the deposited data

How the results depend on the processing

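Of 97 values recomputed under another setting, 63 stayed inside the main value's Wilson interval or, for counts, lengths, ratios and median shares, within 1.5 times it, and 34 moved. The main values are 2286 regions, 11.1% of the runs open in both portions, and 98.0% with state 2 as the lowest testis state. The others are 2 regions with state 4 and 17.9% with a testis state 1 bin under 1 kb away. There were 83 groups, and 26.7% of the regions lay within 5 Mb of an end. With regions of at least 400 bp these became 856 regions, 5.7%, 98.7%, 0 with state 4, 28 groups and 30.6% near ends, against 12.7% of runs also open in the testis. With states 1 and 2 counted as open there were 9294 regions, 13.7% of the runs open in both portions, and 663 groups. Of these regions 294 had state 4 or 5 as the lowest testis state and 2.73% were near a testis state 1 bin. Near ends lay 26.1% of them, against 15.01% of the runs also open in the testis. Bridging runs 1 bin apart gave 10.6% of the runs open in both portions and 13.4% near the testis. Requiring 1 kb free of testis state 1 gave 9.12% and 55 groups. Calling the testis open only where state 1 covered at least 50% gave 2666 regions, or 13.0%, with 84.1% at state 2 and 29.6% near the testis. This setting admits regions that hold testis bins in state 1. Their lowest testis state is 1 and they count as near the testis, while the number with state 4 or 5 stayed at 2. Merging the portions' segments gave 10.2% and 11.4% near the testis. The share at state 2 was 97.3% on all scaffolds and 97.1% with scaffold 15. Within 5 and 500 kb of the regions, the median share of states 1 to 3 was 92% and 58.1% for the ovarian portion, 88% and 57.8% for the testicular portion and 80% and 51.1% for the testis. Gaps of 20 and 100 kb gave 52 and 130 groups. Without scaffold 2, 29.6% lay near ends, against 13.8% of the runs also open in the testis. The alternatives for scaffolds left out and for the ends were chosen after seeing the data.

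The share at state 2 has no value with states 1 and 2 as open, nor the share near the testis with 1 kb required, since the rule fixes both. Density and ends were not computed for all scaffolds. GC content and motifs were not run. No paired analysis was possible because both samples of a tissue share 1 segmentation, and for the same reason no sample was left out. Without a depth per sample, a region in state 2 in the testis cannot be told apart from one just short of state 1.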

Other observations

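Scaffold 15, singled out after its values were seen, was not among the 16 scaffolds. It held 94 regions by the same rule, or 16.5% of its 571 runs open in both portions (13.7% to 19.7%). The lowest testis state was 2 in 71 of them, or 75.5%, 3 in 22 and 4 in 1, against 98.0% at state 2 on the 16 scaffolds. The whole of scaffold 15 was also lower in states 1 to 3, which covered 23.9% in the ovarian and 13.5% in the testicular portion, against 11.1% in the testis. On the 16 scaffolds they covered 37.8% in the ovarian and 39.1% in the testicular portion, against 39.7% in the testis. Most of the 23 lay in 2 places. From 23236001 to 23283600, over 47.6 kb, each of the 15 runs open in both portions was a region, and the testis had state 3 or 4 as its lowest state in 14 of them. State 1 covered 19.3% of this stretch in the ovarian and 15.97% in the testicular portion, against 0% in the testis, and states 1 and 2 covered 45.4% in the ovarian and 37.4% in the testicular portion, against 1.26% in the testis. These shares include the 15 regions, which made up 7600 bp of the 47.6 kb. The rule puts them in state 1 in both portions and not in the testis, so the difference in state 1 is largely fixed by the rule. A further 5 regions followed from 23334201 to 23346800, of which 3 had state 3 as the lowest.

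The second place lay on the same scaffold from 13546801 to 13572400. There, each of 8 runs open in both portions was a region, and 5 had state 3 as the lowest testis state. This place included a region of 2400 bp at 13570001 to 13572400, longer than any on the 16 scaffolds, and one of 1800 bp at 13566801 to 13568600. State 1 covered 25.8% in the ovarian and 24.2% in the testicular portion, against 0% in the testis. The 8 regions, 5600 bp of 25.6 kb, count in these shares, so this difference too is largely fixed by the rule. No gene was assigned to either place. The other 4437 scaffolds, with 93.6 Mb in all, held 154 regions among 935 runs open in both portions, or 16.5% (14.2% to 19.0%). Of these regions 153 had state 2 as the lowest testis state.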
